A study of Homo sapiens with 9 samples.

Results

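*AKR1C1*, *AKR1C2*, *AKR1C3*, *AKR1B1*, *AKR1B10*, *CYP1A1*, *CYP1B1*, *CYP19A1*, *STS* and *AHR* were examined as genes of aldo-keto reductases, cytochrome P450 enzymes and steroid-modifying enzymes, with the receptor that controls the CYP1 genes. The 10 genes were taken by name, after the gene identifiers of the count files were matched to symbols, out of 60708 genes in all. Gene-level read counts came from RNA sequencing of 9 libraries of untreated cells, all labelled MDA-MB-231, an established human triple-negative breast cancer line, with 3 libraries labelled WT and 3 each labelled CS16 and CS19. Per the study's methods, both *SNAI1*-KO clones were made by transfecting the line with a pool of CRISPR/Cas9 guide plasmids against *SNAI1*, a transcriptional repressor of epithelial genes, together with a repair plasmid for puromycin selection. Each clone was grown from a colony of 1 cell, so the 6 *SNAI1*-KO libraries represent 2 clones. Markers of the line in the clone libraries went against that label, as the values below show, so the identity of the clones is in doubt. Nothing in the labels tied a library to a separate culture or to a date, and the p-values measure only the spread between these libraries, which may be technical.

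Aldo-keto reductases use NADPH to reduce aldehydes and ketones. The AKR1C enzymes interconvert active and inactive androgens, progestins and prostaglandins, and AKR1B1 reduces glucose to sorbitol. CYP1A1 and CYP1B1 oxidise polycyclic aromatic compounds and hydroxylate oestrogens, and both genes are classical targets of AHR, a receptor that pairs with ARNT on DNA once a ligand is bound. STS, steroid sulfatase, releases free steroids from their sulfates, and CYP19A1, aromatase, turns androgens into oestrogens, steps by which breast tumours make oestrogen locally. AKR1C and AKR1B10 genes are also known targets of NRF2, the transcription factor of the oxidative stress response.

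The AKR1C genes are near-identical copies that lie side by side on chromosome 10, and the counting kept only read pairs that could be placed uniquely. The following 150 coding bases, positions 13 to 162 of the coding sequence, are shown because they hold the most differences between *AKR1C1* and *AKR1C2* of any stretch of this length. They are from the reference transcripts of gencode release 44 and cover parts of exons 1 and 2 of each gene, chr10:4963457-4963528 and chr10:4965914-4965991 for *AKR1C1* on the plus strand, chr10:5003752-5003823 and chr10:5001604-5001681 for *AKR1C2* on the minus strand, and chr10:5094457-5094528 and chr10:5096410-5096487 for *AKR1C3* on the plus strand. Capitals mark the 26 positions at which the copies were not all alike.
AKR1C1: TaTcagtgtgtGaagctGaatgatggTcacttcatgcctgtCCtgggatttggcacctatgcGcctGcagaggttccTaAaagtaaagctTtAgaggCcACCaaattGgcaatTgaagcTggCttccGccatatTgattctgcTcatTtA
AKR1C2: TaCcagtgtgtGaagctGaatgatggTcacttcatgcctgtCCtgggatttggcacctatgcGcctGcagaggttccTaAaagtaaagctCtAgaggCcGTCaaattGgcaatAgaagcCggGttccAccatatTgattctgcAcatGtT
AKR1C3: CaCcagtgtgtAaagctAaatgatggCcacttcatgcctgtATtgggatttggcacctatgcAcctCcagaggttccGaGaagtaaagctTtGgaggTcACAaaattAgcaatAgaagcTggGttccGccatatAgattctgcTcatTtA
Of these positions, 11 told *AKR1C1* from *AKR1C2*. Over all 969 coding bases, *AKR1C1* and *AKR1C2* differed at 19 (98% identical), *AKR1C1* and *AKR1C3* at 83 (91.4%) and *AKR1C2* and *AKR1C3* at 87 (91%). Of all windows of 150 bases, the read length, along the reference transcript, 17.2% in *AKR1C2*, 7.91% in *AKR1C1* and 2.12% in *AKR1C3* occurred letter for letter in the transcript of another gene of the family. No such window of *AKR1B1* or *AKR1B10* did, and their coding sequences were 75.2% identical. A pair with both mates in such windows cannot be placed uniquely and was not counted, so levels of *AKR1C2* in particular are lower limits, and the split between *AKR1C1* and *AKR1C2* is uncertain.

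For the CYP1 axis, the promoters of *CYP1A1* (chr15:74725479-74725778, minus strand) and *AHR* (chr7:17298402-17298701, plus strand) are shown because they carry the core motif that AHR and ARNT bind. Both were taken from RefSeq on GRCh38.p14 and run from 250 bases before to 50 after the transcription start. Capitals mark GCGTG, the AHR and ARNT core, and CAGGTG, an E-box of the kind that SNAI1 binds, searched on both strands.
CYP1A1: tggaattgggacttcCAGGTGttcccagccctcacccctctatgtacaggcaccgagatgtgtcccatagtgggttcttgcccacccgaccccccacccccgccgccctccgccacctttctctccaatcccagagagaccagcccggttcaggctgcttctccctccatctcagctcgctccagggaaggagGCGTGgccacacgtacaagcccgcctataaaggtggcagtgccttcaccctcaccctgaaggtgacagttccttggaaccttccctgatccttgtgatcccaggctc
AHR: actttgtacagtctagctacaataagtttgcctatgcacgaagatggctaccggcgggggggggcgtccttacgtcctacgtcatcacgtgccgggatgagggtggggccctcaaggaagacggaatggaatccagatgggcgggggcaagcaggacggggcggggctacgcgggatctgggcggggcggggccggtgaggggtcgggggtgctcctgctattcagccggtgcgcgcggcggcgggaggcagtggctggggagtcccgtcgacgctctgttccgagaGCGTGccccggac
GCGTG began at base -57 before the *CYP1A1* start and at base 38 after the *AHR* start, and CAGGTG at base -235 before the *CYP1A1* start. The table held 20 promoters for 8 of the 10 genes, some of which overlap. GCGTG was in 6 of these 20 against 36.5% of all 35116 promoters, CAGGTG in 4 against 20.6%, and TGACNNNGC, the core of the element bound by NRF2, in 1, a promoter of *STS*, against 13.3%. The GCGTG matches of both *AKR1B1* promoters are the same site, held by overlapping windows and so counted for each. No match of 1 motif overlapped a match of another. The *AKR1C1* and *AKR1C2* promoters shared an unbroken run of 245 bases, and neither they nor those of *AKR1C3* held any of the 3 motifs in this window.

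Library totals lay between 19527195 and 28627777 counted pairs, and a floor of 3 counts per library between 0.105 and 0.154 CPM, that is, counts scaled to a common library total. *SNAI1*, the targeted gene, had 16, 38 and 21 counts in the WT libraries, 26, 40 and 49 in the CS16 and 57, 94 and 94 in the CS19 libraries. It was not lower in the libraries labelled *SNAI1*-KO (log2 fold change 0.89, adjusted p = 0.0838, edgeR's quasi-likelihood test), and a count over the whole gene says nothing about a deletion within it. For both clones the paper reports less *SNAI1* mRNA at each exon by RT-qPCR and no detectable SNAI1 protein. It also reports deletions within the gene, seen in the aligned reads of the knockout cells. All directions below follow the labels. By the cut-offs given below, 14.3% of all genes tested were called lower and 12.6% higher in the libraries labelled *SNAI1*-KO, for comparison with the marker counts that follow. Of 14 markers of mesenchymal MDA-MB-231 cells, 12 were called lower in the libraries labelled *SNAI1*-KO, and their summed level was 11916 to 15431 CPM in WT, 695 to 733 in CS16 and 632 to 677 in CS19. *CD44* was at 0 counts in 5 of those 6 libraries. All 3 9p21 genes (*CDKN2A*, *CDKN2B* and *MTAP*) had 0 counts in every WT library and summed to 164 to 182 CPM in the others. Of 11 embryonic kidney markers tested, 7 were called higher and 2 lower, among them *SALL1*, at 0 in WT. Their sum was 71.1 CPM in the lowest WT library and below every clone library in all of them (165 to 174 CPM in CS16 and 189 to 201 in CS19). Of 12 luminal markers tested, 9 were called lower and 1 higher, with sums of 1584 to 2231 CPM in WT, 232 to 262 in CS16 and 257 to 278 in CS19. Hepatocyte markers summed to 30.9 to 45 CPM in WT and at most 2.45 in the clones, and most of the WT sum was 1 gene, *SERPINA1* (mean 34.1 CPM). Steroidogenic cell markers summed to at most 60 and leukocyte markers to at most 8.78 CPM in any library. Nearly all of the steroidogenic sum was *FDX1* (mean 39.9 CPM in WT and 51.3 in the clones), so these sums do not speak for their sets. *S100A6*, another of the MDA-MB-231 markers, had 48439 to 112919 counts in the WT libraries and 1 count in all clone libraries together. Some genes that one group lacked were thus expressed strongly in the other, with *MTAP* at 104 CPM in the clones. Whether WT and the clones are the same cell line was not tested, and for every difference between WT and the clones given below, the targeting of *SNAI1*, clonal growth and a difference in cell line cannot be told apart. Among the WT libraries WT-2 was unlike the others (chi-square over genes divided by its degrees of freedom of 188 against WT-1 and 230 against WT-3, where that between the latter was 14.6), and values without it are given where they matter.

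In bulk libraries, fewer cells that express a gene and less of its RNA per cell cannot be told apart. Gene coordinates are on GRCh38 as the files give them. Levels below are CPM after TMM normalization, which scales the library totals, and a gene was called when its log2 fold change was at least 2 in either direction at a Benjamini-Hochberg adjusted p below 0.05 over all genes tested. Of the 10 genes, 6 were called lower and 1 higher in the *SNAI1*-KO libraries than in WT. *AKR1C1*, *AKR1C2*, *AKR1C3*, *CYP1B1*, *STS* and *AHR* were downregulated, *CYP19A1* was upregulated, *CYP1A1* passed the test below the fold cut-off, *AKR1B1* did not pass the test, and *AKR1B10* had too few counts to be tested. Over all 19631 genes tested, 14.3% were called lower and 12.6% higher. Each clone alone gave the same calls, 6 lower and 1 higher, against 15.3% and 11.8% of all genes for CS16 and 14.4% and 12.0% for CS19. Both clones were compared with the same WT libraries. In 8 of the 9 tested genes no *SNAI1*-KO library overlapped the WT range, as was the case for 58.3% of all genes tested. The median log2 fold change of the 9 was -3.31, against 0.00 over all genes.

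**Figure D1:**
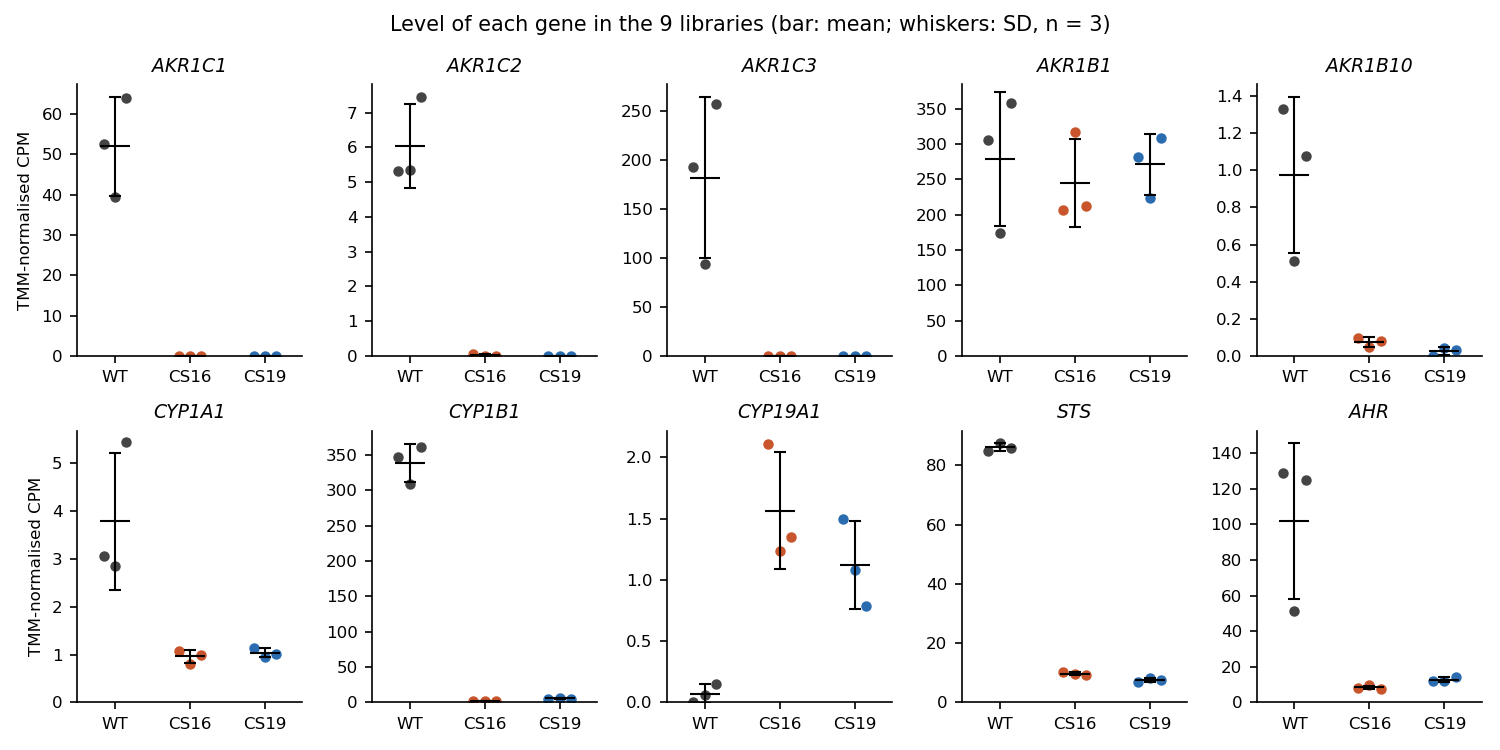
TMM-normalised CPM of the 10 genes in each of the 9 libraries, 1 panel per gene with its own linear axis from 0, dots for libraries and bars for the mean with SD (n = 3). The AKR1C genes, *CYP1B1*, *STS* and *AHR* lie near the axis in both clones, *AKR1B1* overlaps between groups, and *CYP19A1* is the gene that is higher in the clones.

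*AKR1C3* (ENSG00000196139.14, chr10:5035354-5107686), which reduces androstenedione to testosterone, led the AKR1C genes in WT. It reached 193, 94.1 and 257 CPM in WT-1, WT-2 and WT-3, 0.196, 0.0955 and 0.0398 in the CS16 libraries and 0 in all CS19 libraries. In counts this was 10556 in WT, 7 in CS16 and 0 in CS19. The WT libraries differed among themselves, with WT-2 at 0.419 of the mean of the other two, yet none came near the clones. *AKR1C3* was 1750-fold lower in CS16 (95% counting interval 849 to 4354) and at least 4645-fold lower in CS19, taking 3 counts over the group as the floor. Its adjusted p was 1.45e-05 for CS16 and 6.77e-05 for CS19 (edgeR's quasi-likelihood test).

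*AKR1C1* (ENSG00000187134.14, chr10:4963253-4983283), which inactivates progesterone, had 52.4, 39.5 and 63.8 CPM in the WT libraries. Its counts fell from 2997 in WT to 3 in CS16, in libraries CS16-1 and CS16-3 only, and to 0 in CS19. The ratio of WT to CS16 was 1159 (counting interval 396 to 5625), and the level in CS19 was at least 1319-fold lower than in WT. The groups did not overlap, and the adjusted p was 9.25e-06 for CS16 and 2.11e-05 for CS19.

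*AKR1C2* (ENSG00000151632.17, chr10:4987400-5018031), which inactivates dihydrotestosterone, had 5.33, 5.36 and 7.44 CPM in WT, 347 counts in all. There was 1 count in CS16, in CS16-1, and none in CS19. WT exceeded CS16 by a ratio of 403 (counting interval 71.8 to 15952) and CS19 by at least 153-fold, with an adjusted p of 3.63e-05 and 7.64e-05. Counting intervals and floors cover counting error only, since reads without molecular identifiers are not independent molecules.

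Summed over the 3 genes, which removes the doubt over which copy a pair was given to, WT-1, WT-2 and WT-3 held 250.5, 139 and 328 CPM and no *SNAI1*-KO library more than 0.343 CPM, in CS16-1. The sum was lower in CS16 (adjusted p = 1.41e-05), in CS19 (3.96e-05) and in both clones together (1.26e-08). *AKR1C3* took 77%, 67.7% and 78.3% of the AKR1C counts in WT-1, WT-2 and WT-3, *AKR1C1* 20.9%, 28.4% and 19.5%, and *AKR1C2* 2.13%, 3.86% and 2.27%. The order of the 3 genes was thus alike in all WT libraries, while WT-2 held the smallest share of *AKR1C3*. For CS16 the fitted log2 fold changes of *AKR1C1*, *AKR1C2* and *AKR1C3* were -9.95, -8.13 and -10.62 with all libraries and -10.85, -9.95 and -11.29 without CS16-1, which held most of the counts, and at such counts these values depend on the prior count and are no bounds. No share was read from the clones, which had 7, 2 and 2 AKR1C counts in the CS16 libraries and none in CS19.

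*AKR1B10* (ENSG00000198074.10, chr7:134527567-134541412), a retinal reductase, was close to its floor. Its counts were 27, 9 and 21 in WT, 2, 1 and 2 in CS16 and 0, 1 and 1 in CS19. No clone library reached the lowest WT library, and the ratio of WT to both clones was 20.2 (counting interval 9.2 to 52.5). The filter on low counts removed the gene, and in the fit without a filter its log2 fold change was -4.06 ± 0.59 (SE, adjusted p = 4.64e-06). It also entered the test when WT-2 was left out, at -4.47 (adjusted p = 9.47e-06).

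*AKR1B1* (ENSG00000085662.14, chr7:134442356-134459284) lies next to *AKR1B10*, and its groups overlapped. Its levels were 306, 174 and 358 CPM in WT, 206, 317 and 212 in CS16 and 281, 224 and 309 in CS19. The lowest of all 9 libraries was WT-2 and the highest WT-3, and both clones lay within the WT range. Its log2 fold change was -0.11 (95% interval -0.62 to 0.39, adjusted p = 0.685) for both clones together, -0.16 (-0.87 to 0.55) for CS16 and 0.00 (-0.67 to 0.66) for CS19. These intervals leave room for a change of up to 0.87 on the log2 scale in a clone. Without WT-2 the log2 fold change of CS16 was -0.44 (adjusted p = 0.0191), and for both clones together it was -0.37 (adjusted p = 0.0868). Without WT-3 the 2 values turned to 0.06 and 0.13.

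The surroundings of the AKR1C genes were examined after their values were known. Within 1 Mb of *AKR1C1* to *AKR1C3*, 14 other genes that are not named AKR1 had at least 1 CPM in a group, of which 6 were called lower and none higher. Among all genes tested, 14.3% were called lower and 12.6% higher. Upstream, the noncoding genes *MANCR* (75 CPM in WT, 0.00546 in the clones) and *LINC00705* (19.6 and 0.00795 CPM) were called lower, as was the reductase gene *AKR1E2* (8.18 and 0.00723 CPM). Beyond *LASTR* (6.4 CPM in WT, no count in the clones), *GDI2*, *ANKRD16*, *FBH1* and *ASB13* did not pass the test, with log2 fold changes between -0.26 and 0.35. On that side *IL15RA* (log2 fold change -3.42) was called lower, *NET1* (-0.67) passed on the lower side, and *TASOR2* (0.58) and *RBM17* (0.32) passed on the higher side. The 4 genes upstream were all called lower, and downstream 2 of 10 were. These 4 and *LASTR* reached 1 CPM in WT only, so the minimum left them no room to be called higher. Around *AKR1B1* and *AKR1B10*, 12 genes not named AKR1 had at least 1 CPM in a group. Of these, 2 were called higher and none lower, and those 2 reached 1 CPM in the clones only.

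**Figure D2:**
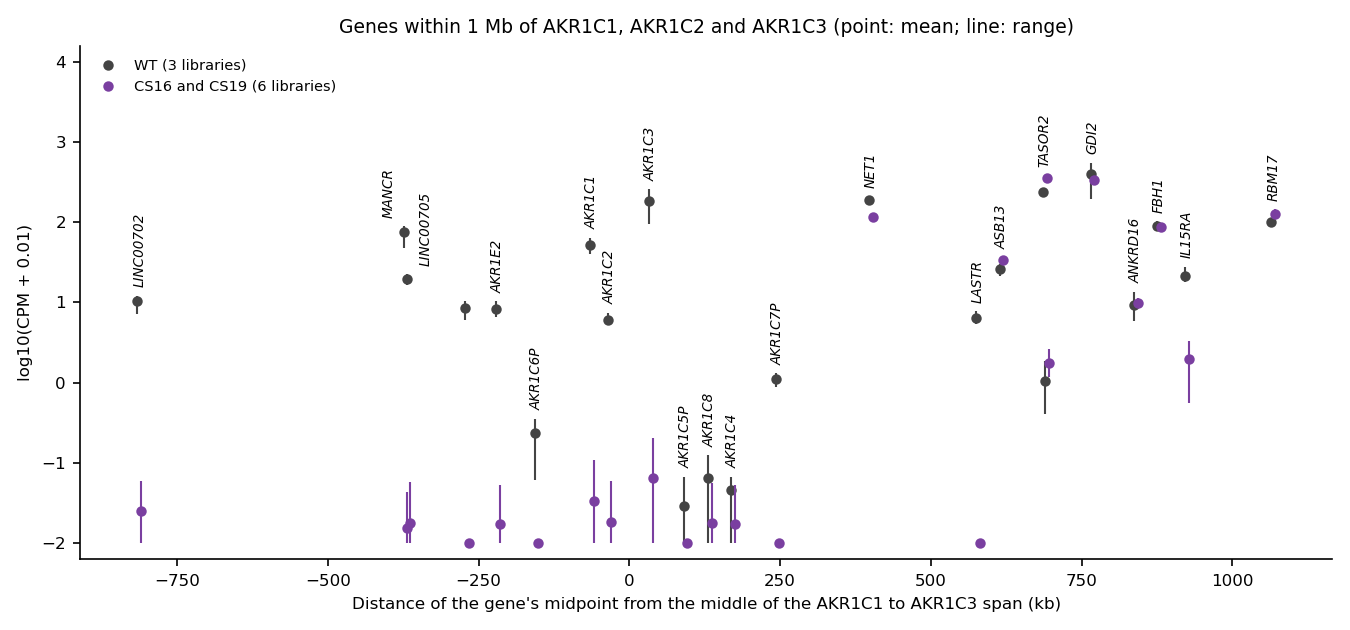
Mean level (points) and range (lines) of genes within 1 Mb of the AKR1C genes, as log10(CPM + 0.01) against the distance of each gene's midpoint from the middle of the *AKR1C1* to *AKR1C3* span in kb, for 3 WT and 6 clone libraries. *MANCR*, *LINC00705*, *AKR1E2* and the 3 AKR1C genes are near the bottom in the clones, while the WT and clone ranges of *GDI2* and *FBH1* to the right overlap.

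*CYP1B1* (ENSG00000138061.12, chr2:38066973-38109902), the CYP1 enzyme of most tissues outside the liver, had 347, 309 and 361 CPM in WT, 1.76, 2.29 and 1.63 in CS16 and 5, 6.55 and 5.11 in CS19. All WT libraries stood far above all clone libraries, and every CS19 library was above every CS16 library. The log2 fold change was -7.45 ± 0.24 (SE, adjusted p = 4.18e-06) for CS16 and -5.89 ± 0.23 (adjusted p = 3.59e-06) for CS19. Exons of *RMDN2* and of antisense genes cover 13.1% of the *CYP1B1* exons, and pairs there were given to no gene.

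*CYP1A1* (ENSG00000140465.14, chr15:74719542-74725536), a strongly inducible AHR target, was low in these untreated cells. Its counts were 62, 50 and 106 in WT, 22, 17 and 25 in CS16 and 25, 22 and 31 in CS19. In CPM this was 3.06, 2.85 and 5.44 in WT and between 0.811 and 1.14 in the clones, without overlap. The log2 fold change was -1.92 ± 0.25 (SE, adjusted p = 4.41e-05), past the test but short of the fold cut-off, as 32.6% of all genes passed the test on the lower side. Without WT-1 or WT-2 it was -2.05 and -2.09 and would have been called, and without WT-3, the highest library, it was -1.54.

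*AHR* (ENSG00000106546.14, chr7:16916359-17346152), the receptor, had 129, 51.4 and 125 CPM in WT, 8.24, 9.5 and 7.52 in CS16 and 12, 11.9 and 14.2 in CS19. WT-2 held 0.405 of the mean of the other WT libraries and was still above every clone library. The log2 fold change was -3.57 ± 0.38 (SE, adjusted p = 0.000196) for CS16 and -2.96 ± 0.37 (adjusted p = 0.000386) for CS19. Exons of other genes cover 35.2% of the *AHR* exons as the authors' annotation draws them, so its level is a lower limit.

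*STS* (ENSG00000101846.8, chrX:7147237-7804358), the sulfatase, had 84.9, 87.6 and 85.8 CPM in WT, 10.3, 9.55 and 9.19 in CS16 and 7, 8.2 and 7.72 in CS19. It varied least among WT libraries of the 10 genes, with a coefficient of variation of 1.62%, and WT-2 did not stand apart for it. The log2 fold change was -3.12 ± 0.17 (SE, adjusted p = 1.07e-05) for CS16 and -3.45 ± 0.18 (adjusted p = 7.74e-06) for CS19.

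*CYP19A1* (ENSG00000137869.15, chr15:51208057-51338601), aromatase, was the only gene of the 10 called higher in the clones. Its counts were 0, 1 and 3 in WT, 43, 26 and 34 in CS16 and 33, 25 and 24 in CS19. All clone libraries stood above all WT libraries, which were at or under their floors, and the clones together exceeded WT by a ratio of 18.6 (counting interval 7.16 to 69.2). The fitted log2 fold change was 4.40 ± 0.67 (SE, adjusted p = 0.00109) for CS16 and 3.93 ± 0.69 (adjusted p = 0.00208) for CS19. These values rest on few WT counts. Without WT-3, which held 3 of them, they were 5.62 and 5.17, and without WT-1, which held none, 3.80 and 3.33, with the gene called higher each time. In absolute terms it stayed low, between 0.786 and 2.11 CPM in the clones.

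**Figure D3:**
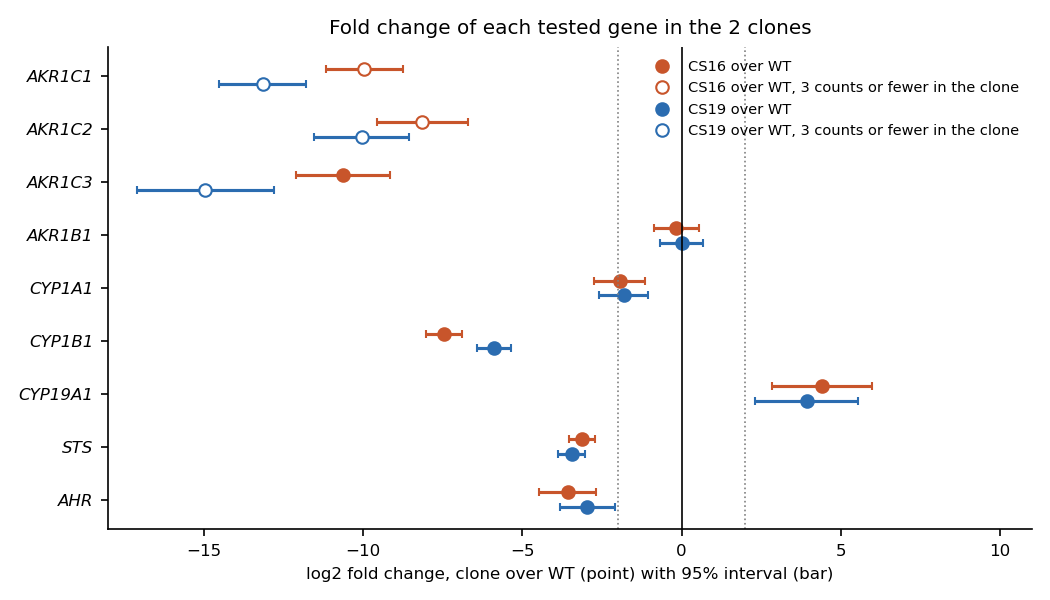
Log2 fold change of each of the 9 tested genes in CS16 and in CS19 over WT, points with 95% intervals, with dotted lines at the fold cut-off of 2. Open points mark a clone with 3 counts or fewer, where the fitted value depends on the added prior count and is no bound. *CYP1B1* and *AHR* were lower in both clones, more so in CS16.

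The clones were then compared directly. No gene of the 6 that could be tested was called between CS16 and CS19 with edgeR or with DESeq2, where 0.633% of all genes were called higher and 0.496% lower in CS16. Without the fold cut-off, 3 of the 6 passed, the same number as at an unadjusted p below 0.05, with *CYP1B1* and *AHR* lower and *STS* higher in CS16 (12.7% and 14.7% of all genes passed on these sides). *CYP1B1* was lower in CS16 by a log2 fold change of -1.56 ± 0.19 (SE, adjusted p = 4.96e-05). *AHR* was lower by -0.61 ± 0.12 (adjusted p = 0.00211), and this passed in every fit except the one that shared the spread of all 3 groups (adjusted p = 0.453). *STS* was higher in CS16 by 0.33 ± 0.11 (adjusted p = 0.0437). But with DESeq2 the adjusted p was 0.0738, with upper-quartile normalization 0.0633, without the filter 0.0798 and in the shared fit 0.28. It also no longer passed when any 1 library other than CS19-2 was left out. *AKR1B1* differed by -0.16 (95% interval -0.48 to 0.16), *CYP1A1* by -0.11 (-0.71 to 0.49) and *CYP19A1* by 0.49 (-0.20 to 1.18), and none of these passed. Without CS16-2, *AKR1B1* was lower in CS16 by -0.38 (adjusted p = 0.00786).

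Compared per kilobase of merged exon length, the genes are given in the order of their WT means, which neighbours with overlapping ranges did not keep in every library. The order also depends on the lengths used. For *AKR1C3* the merged length was 3911 bases, against 1186 in its reference transcript. For *AHR*, 35.2% of the exon bases are shared with other genes, and *AKR1C2* loses pairs to its copies, so both are lower limits. *AKR1B1* (76.4 ± 26 CPM per kb, SD, n = 3), *CYP1B1* (56.7 ± 4.49) and *AKR1C3* (46.3 ± 20.9) led, and their ranges overlapped. *AHR* (12.6 ± 5.43), *STS* (6.98 ± 0.113) and *AKR1C1* (5.92 ± 1.38) followed, each overlapping the next. Below them came *CYP1A1* (1.13 ± 0.428) and *AKR1C2* (0.935 ± 0.188), which also overlapped, then *AKR1B10* (0.55 ± 0.236) and, lowest, *CYP19A1*, at no more than 0.0183 CPM per kb. In the clones *AKR1B1* alone remained high (67 ± 17.1 CPM per kb in CS16 and 74.3 ± 11.8 in CS19). *AHR* came next (1.05 ± 0.124 and 1.58 ± 0.164). In CS16 *STS* (0.784 ± 0.0457) exceeded *CYP1B1* (0.317 ± 0.0583), and in CS19 *CYP1B1* (0.927 ± 0.144) exceeded *STS* (0.619 ± 0.0489). *CYP19A1* moved from the bottom of the order to above the AKR1C genes, with 0.186 ± 0.056 CPM per kb in CS16 and 0.133 ± 0.0425 in CS19.

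**Figure D4:**
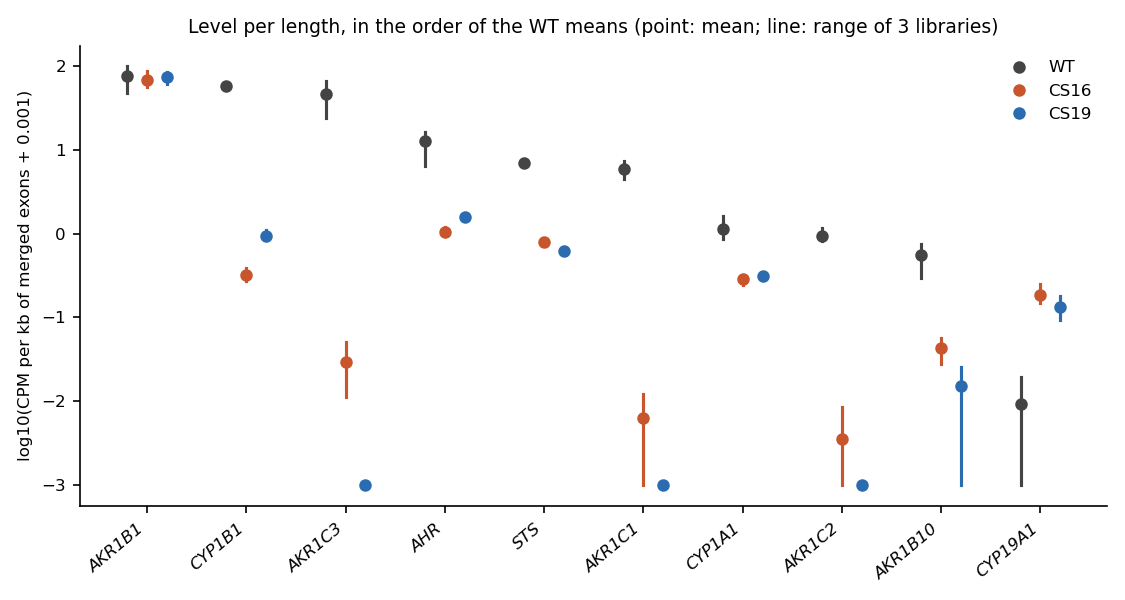
Level of the 10 genes as log10(CPM per kb of merged exons + 0.001) in WT, CS16 and CS19, points for means and lines for the range of 3 libraries, in the order of the WT means. *AKR1B1* is alike in all groups, and *CYP19A1* is the only gene whose clone points lie above the WT point.

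The lists of related genes that follow were compared between *SNAI1*-KO and WT, where 31.1% of all genes passed the test on the higher and 32.6% on the lower side, beside the 12.6% and 14.3% that were called. Partners and targets of AHR moved in both directions. Of 18 listed genes 16 were tested, of which 4 passed on the higher and 8 on the lower side, with a median log2 fold change of -0.71, and 2 were called lower and none higher. *NQO1*, a quinone reductase that both AHR and NRF2 control, was called lower (256 ± 82.6 CPM in WT and 7.05 ± 1.36 in the *SNAI1*-KO libraries, log2 fold change -5.18, adjusted p = 5.51e-09), as was *RELB*, an NF-κB subunit (28.1 ± 11.6 and 1.57 ± 0.293 CPM). *ARNT*, the DNA-binding partner of AHR, was higher (43.4 ± 2.88 and 89.6 ± 7.51 CPM, log2 fold change 1.05), and *ARNT2* lower (-1.81). *AHRR*, which represses AHR, rose from 0.521 ± 0.0573 to 1.47 ± 0.327 CPM, and *TIPARP*, an AHR target that restrains it, fell from 94 ± 34 to 41.8 ± 8.83 CPM, both below the fold cut-off. *NFE2L2*, which encodes NRF2, had a log2 fold change of -1.28 (adjusted p = 5.58e-06).

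Of 28 NRF2 targets and regulators, which include *NQO1* and *NFE2L2* again, 27 were tested, with 5 called lower and none higher, 18 passing on the lower and 3 on the higher side, and a median of -0.78. *ABCC3*, a conjugate exporter, had 1674, 3161 and 1382 counts in WT and 2 to 4 in each *SNAI1*-KO library. In WT and in the *SNAI1*-KO libraries, *OSGIN1* was at 17.6 ± 9.2 and 0.846 ± 0.145, *TXNIP*, which inhibits thioredoxin, at 307 ± 91 and 28.5 ± 7.34, and *FTL*, the ferritin light chain, at 1665 ± 153 and 222 ± 31.1 CPM. The glutathione synthesis gene *GCLC* (log2 fold change 0.93) and the haem oxygenase gene *HMOX1* (0.80) were among the 3 that passed on the higher side. The list thus held members that moved both ways.

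Of 41 genes of steroid synthesis and interconversion, 24 were tested, with 4 called higher and 4 lower and a median of 0.34. *HSD3B1*, which converts pregnenolone and dehydroepiandrosterone onward, had 150, 82 and 127 counts in WT and none in the clones, at least 297-fold lower. *HSD11B1*, which regenerates cortisol, had 61 counts in WT and 2 in the clones, a ratio of 75.7 (counting interval 20.1 to 639), and *H6PD*, which supplies its NADPH, was also lower (143 ± 72.9 and 18 ± 5.18 CPM). *HSD3B7*, of bile acid synthesis, was at 15.2 ± 2.34 CPM in WT and 0.744 ± 0.193 in the *SNAI1*-KO libraries. *HSD17B14* rose from 0.0658 ± 0.114 to 1.57 ± 0.51 CPM, and *HSD17B6*, *HSD17B7* and *SRD5A3* were the other genes called higher, chosen here to complete the count.

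Of 32 genes of sulfate and glucuronide conjugation and steroid transport 12 were tested, with 4 called higher, 2 lower and a median of -0.08. *SULT1C4*, a sulfotransferase, had 1 count in WT and 620 in the clones, a ratio of 249.9 (counting interval 44.7 to 9888). *SULT2A1*, which sulfates dehydroepiandrosterone, had no count in WT, 30, 40 and 42 in CS16 and 5, 6 and 4 in CS19. With both clones pooled it was at least 17.1-fold higher, a bound that rests mostly on CS16. For CS19 alone against WT the gene was not tested. The transporter genes *SLCO3A1* (21.6 ± 4.18 and 0.417 ± 0.193 CPM) and *SLCO4A1* (85.9 ± 18.1 and 15.7 ± 3.35) were lower, and *SLCO1A2* (0.198 ± 0.128 and 3.84 ± 1.38) was higher. *PAPSS2*, which makes the sulfate donor, passed on the lower side (log2 fold change -1.49), and both sulfatase-modifying genes, *SUMF1*, whose product activates STS, and *SUMF2*, did as well (-1.14 and -0.91).

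Among 12 other aldo-keto reductase genes 8 were tested, of which 1, *AKR1E2*, was called lower, none was called higher, and the median was -0.02. *AKR7A2*, another aldehyde reductase, passed on the lower side (57.4 ± 3.49 CPM in WT and 42.3 ± 2.17 in the *SNAI1*-KO libraries, log2 fold change -0.44). *AKR1A1*, the broadly expressed aldehyde reductase, had a log2 fold change of -0.03 (adjusted p = 0.902). *AKR1C4*, the liver member of the AKR1C cluster, had at most 1 count in any library. Of 6 steroid receptor genes 4 were tested. *NR3C1*, the glucocorticoid receptor, passed on the lower side (-1.70), and *ESR1*, the oestrogen receptor, had at most 9 counts in any library.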

How the data were processed

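RNA was sequenced from 9 libraries of untreated cells labelled MDA-MB-231 (3 WT, 3 CS16, 3 CS19), a label that markers in the CS16 and CS19 libraries go against. Per the labels and methods, the authors trimmed paired reads with Trimmomatic 0.36, aligned them to GRCh38.p13 with STAR 2.7.2b in 2 passes and counted pairs per gene of gencode release 38 with featureCounts of Subread 2.0.0. Pairs needed both mates, no chimera and a mapping quality of at least 30, and strand was not used. The authors deposited raw counts per gene without normalization, with merged exon lengths, given here as deposited.

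Identifiers were matched to symbols (60463 of 60708). Counts passed filterByExpr, were normalized by TMM and tested with edgeR 4.0.16 (quasi-likelihood, R 4.3.3) with Benjamini-Hochberg adjustment over all genes tested: 6 *SNAI1*-KO against 3 WT libraries, each clone against WT, and CS16 against CS19. The log2 cut-off was 2. Intervals are 95%, those of ratios exact binomial (scipy 1.17.1), and the floor was 3 counts. On simulated data 200 of 200 genes changed 8-fold were recovered with 0 false calls, for both *SNAI1*-KO against WT and CS16 against WT. The simulation gave all genes and libraries the same spread and changed only genes well above the floor. It therefore did not cover genes at few counts or a deviating library such as WT-2. Coding sequences came from gencode release 44 and promoters from RefSeq.

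Alternatives were DESeq2 1.42.0, RLE and upper-quartile normalization, no filter, at least 10 counts in 3 libraries, omission of the 100 highest genes, a replicate block, a shared fit, other fold cut-offs and omission of each library. The genes and lists were chosen with earlier results of these data known. Named beside the 10 genes were *SNAI1*, *ARNT*, *AHRR*, *TIPARP*, *NQO1* and, per list, the 5 genes with the largest fold change among those past the test, without overlap between groups and with a mean of at least 1 CPM in a group. A gene that the rule would name is not reported here. *GCLC*, *HMOX1*, *HSD17B6*, *HSD17B7*, *SRD5A3*, *PAPSS2*, *SUMF1*, *SUMF2*, *AKR1A1*, *AKR1C4*, *ESR1*, *FDX1* and the neighbours of the AKR1C genes were named in addition, after their values were seen.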

Additional observations from a re-analysis of the deposited data

Results flagged for a closer look

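*AKR1C2* was flagged because CS16-1, with 1 count (0.049 CPM), was the only *SNAI1*-KO library of 6 in which the gene was seen. This is a difference of 1 read pair. The rule is meant to flag about 1 in 20 groups by chance, but it always flags a gene with counts in only 1 of 6 libraries, so that rate does not hold here.

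The clones differed in 3 genes by the direct test of CS16 against CS19 with edgeR. *CYP1B1* had a log2 fold change of -1.56 (adjusted p = 4.96e-05), with all 3 CS16 libraries below all 3 CS19 libraries. *AHR* had -0.61 (adjusted p = 0.00211), again with no overlap. *STS* had 0.33 (adjusted p = 0.0437), higher in 3 of 3 CS16 libraries, and no longer passed the test under most alternatives. Each clone is 1 isolate, so a difference between clones and a difference between their cultures cannot be told apart.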

How the results depend on the processing

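The 7 genes called in *SNAI1*-KO against WT, in CS16 against WT and in CS19 against WT stayed called, with their direction, under every alternative run, with 7 to 9 genes called, the added ones being *AKR1B10* and *CYP1A1*. The AKR1C sum stayed lower under each alternative, between -12.91 and -11.15 for both clones. Between CS16 and CS19 the count of 0 became 1 at a log2 cut-off of 1 (*CYP1B1*) and 3 without a cut-off. *AKR1B1* turned from -0.11 to 0.13 for both clones, and from -0.16 to 0.06 for CS16, without WT replicate 3, and was -0.37 and -0.44 without WT replicate 2, and the cause was not tested. Same-numbered libraries did not deviate together (correlations of -0.206 to 0.19, numbers share only a label). With the replicate block, 7 genes were again called for both clones and for each clone, and 0 between clones, where the adjusted p of *STS* rose to 0.118. These library totals leave *AKR1B10*, *CYP19A1* in WT and the AKR1C genes in the clones at counts where folds are limits or wide intervals. Pairs with both mates in windows that *AKR1C1* and *AKR1C2* share were not counted.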
